A study of Drosophila melanogaster with 3 samples.

Results

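The regions described here are 5316 peaks of topi-eGFP chromatin immunoprecipitation that lay below the authors' reproducibility threshold and were nevertheless listed in every replicate. They were selected on measured values, from the 30000 rows of the authors' pooled peaks-and-background list on the dm6 build. A row was a member when it overlapped none of the 8424 peaks of the authors' optimal IDR set by 1 bp or more, and overlapped a peak of each of the 3 replicate lists by at least 50% of either peak. IDR, the irreproducible discovery rate, scores how well peak ranks agree between lists. By the same 50% rule, 7753, 8313 and 8397 of the IDR peaks were supported in replicates 1, 2 and 3, so not every IDR peak was. Of 19856 pooled rows that overlapped no IDR peak, the members were 26.8%, and the remaining 14540, called the other non-IDR peaks below, were the set they were compared with.

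The 3 libraries formed a single group: whole white prepupae of a transgenic line with a C-terminal GFP on topi, both sexes pooled, precipitated with an antibody to GFP. The labels number them as biological replicates 1, 2 and 3, and give 1 control experiment. There was no second condition, tissue or time, so every comparison here is between sets of peaks from these animals. Whole animals mix all tissues, so a strong peak in few cells and a weak peak in many cannot be told apart. Peak lists hold no read counts, and the depth of each library is unknown.

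Topi is a zinc-finger protein of tMAC, the testis meiotic arrest complex, which in spermatocytes turns on genes for meiosis and sperm formation. The complex is a testis relative of the dREAM complex of somatic cells, and topi is one of its DNA-binding subunits. Chromatin immunoprecipitation reads out DNA that was crosslinked to the tagged protein or to its partners. Of 9 tMAC genes, topi itself included, none had a member inside the gene or 500 bp or less from its transcription start site (TSS). Over all protein-coding genes these shares were 10.8% inside the gene and 7.03% at a TSS, so 0 of 9 was near background. An IDR summit lay at the start of mip40, with a signal of 99.7.

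The sequences around 8 member summits are printed to show what these sites look like: first the strongest member of each chromosome arm shown, then the members at the starts of 3 Hox genes. Each is 151 bases of the plus strand of dm6, centred on the summit, taken from the RefSeq copy of that assembly. Capitals mark matches, on either strand, to the 5 motifs that members held more often than the other non-IDR peaks without regard to base composition (the DRE TATCGATA, the GATA site AGATAA, the homeodomain core TAATTA, the TATA box TATAAA and a run of 8 A).
CG5958, chr2L:7434155-7434305: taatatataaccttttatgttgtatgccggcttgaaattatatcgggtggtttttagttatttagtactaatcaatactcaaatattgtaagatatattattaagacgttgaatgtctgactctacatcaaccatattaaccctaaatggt
lncRNA:CR46215, chr3L:18430800-18430950: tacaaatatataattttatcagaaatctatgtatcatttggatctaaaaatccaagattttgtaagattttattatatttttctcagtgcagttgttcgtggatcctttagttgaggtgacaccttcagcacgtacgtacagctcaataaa
plum, chr3R:26504502-26504652: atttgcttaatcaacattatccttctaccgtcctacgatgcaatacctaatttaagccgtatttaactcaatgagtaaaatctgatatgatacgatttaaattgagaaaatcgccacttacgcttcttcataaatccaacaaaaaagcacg
ND-49, chr4:570836-570986: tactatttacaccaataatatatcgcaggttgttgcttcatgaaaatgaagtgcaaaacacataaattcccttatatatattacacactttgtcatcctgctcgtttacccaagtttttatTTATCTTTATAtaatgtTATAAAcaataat
Cht6, chrX:10021871-10022021: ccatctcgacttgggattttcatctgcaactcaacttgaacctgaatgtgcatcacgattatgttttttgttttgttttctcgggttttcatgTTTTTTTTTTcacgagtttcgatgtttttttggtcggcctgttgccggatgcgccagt
Dfd, chr3R:6791347-6791497: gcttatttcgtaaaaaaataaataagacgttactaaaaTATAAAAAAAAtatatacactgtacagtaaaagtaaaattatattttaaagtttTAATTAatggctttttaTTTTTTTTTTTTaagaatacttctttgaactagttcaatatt
Antp, chr3R:6933101-6933251: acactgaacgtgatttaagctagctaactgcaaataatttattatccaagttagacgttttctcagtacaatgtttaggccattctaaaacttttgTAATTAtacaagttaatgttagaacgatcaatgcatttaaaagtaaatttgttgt
abd-A, chr3R:16829864-16830014: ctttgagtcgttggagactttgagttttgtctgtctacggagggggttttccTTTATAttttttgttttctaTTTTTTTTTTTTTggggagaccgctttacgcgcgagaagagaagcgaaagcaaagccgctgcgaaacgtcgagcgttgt

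Among these 8 windows the GC content ran between 16.6% at Dfd and 43.7% at abd-A. The windows at CG5958, lncRNA:CR46215 and plum held no match, and the one at Cht6 held only a run of T. A match in such a short window is a description of letters and not a binding site.

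The deposited signal, the authors' enrichment score against the control, was one of the values that placed the members where they are and is given as a description. Members spanned pooled signals of 18.4 to 93.69 with a median of 58.1, the other non-IDR peaks spanned 18.4 to 93.66 with a median of 28.5, and IDR peaks began at 93.70 with a median of 180. All 8424 IDR peaks were the 8424 strongest pooled rows, so the strongest member, in an intron of plum, was the next row of the list, at rank 8425. The median deposited -log10 q-value was 2.04 in members and 0.556 in the other non-IDR peaks. Its range in members was wide, between 0.187 and 4.28, so presence in 3 relaxed lists took in rows that the authors' caller scored as background.

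At the edge of the overlap rule, members near Rim2, CG43169 and hth were supported in their weakest replicate by exactly 50% of a peak. Just outside it, peaks near CG31871, CG45081 and CG13627 reached 49.8%, and the peak near CG31871 had a pooled signal of 77.5. In all, 670 members rested on an overlap under 60% in some replicate. Of the 7882 other peaks supported by 2 replicates, 1378 overlapped some peak of the remaining replicate.

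Within the replicates' own lists, each of 30000 peaks, members sat in the middle. Their supporting peaks had median ranks of 12431, 15536.5 and 14302.5 in replicates 1, 2 and 3. Among the strongest 8424 peaks of a list were 970 members in replicate 1, and 318 in each of replicates 2 and 3. For 45.2% of members the worst rank of the 3 was in replicate 2, for 30.8% in replicate 3 and for 24.0% in replicate 1. Members were not always separate regions: 474 shared their supporting peak with another member in all 3 replicates. Another 7 members were supported in every replicate by a peak that itself overlapped an IDR peak.

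Only 13 members ranked within the strongest 8424 of every replicate. They included a promoter peak of Dhps (deoxyhypusine synthase), whose supporting peaks had signals of 81.1, 61.6 and 50.7 in replicates 1, 2 and 3. A peak at the start of Clp, a subunit of the mRNA 3'-end processing machinery, had 91.3, 69.5 and 117 there, against a pooled signal of 38.6. Both are described only, as they were picked for these ranks. The 13 were not all separate: 2 near CG11029 had the same supporting peak in each replicate, and so had 2 near 18w. For 4 of the 13, near bowl, lncRNA:CR45754, kay and lncRNA:CR45887, the supporting peak in each replicate also overlapped an IDR peak, with summits 200 to 210 bp apart.

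Among the 20 strongest members were 3 promoter peaks. Imp, which encodes an mRNA-binding protein of neural and germline stem cells, had signals of 26.5, 26.9 and 45.3 in replicates 1, 2 and 3. At ex (expanded), an upstream regulator of the Hippo growth pathway, they were 41.9, 34.3 and 48.5. At alpha-Man-Ia, a mannosidase of the Golgi, they were 36.2, 24.9 and 41.4. The scores are not scaled between libraries, so only ranks within a list can be set side by side.

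The other 17 lay in introns, intergenic DNA or, at RpS26, in an untranslated exon. Introns held the members of E2f1 (a cell cycle transcription factor), Akap200 (an anchoring protein for protein kinase A), Cht6 (a chitinase), klu (a zinc-finger factor), Sec61alpha (a channel subunit of the endoplasmic reticulum), Shrm (an actin-binding protein) and Nckx30C (an ion exchanger). The replicates disagreed most at E2f1, which ranked 20138 in replicate 1, 6683 in replicate 2 and 10251 in replicate 3, and at dnr1, a regulator of the caspase Dronc, at 24117, 6170 and 11195. In both, replicate 1 was far below the other libraries.

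**Figure D1:**
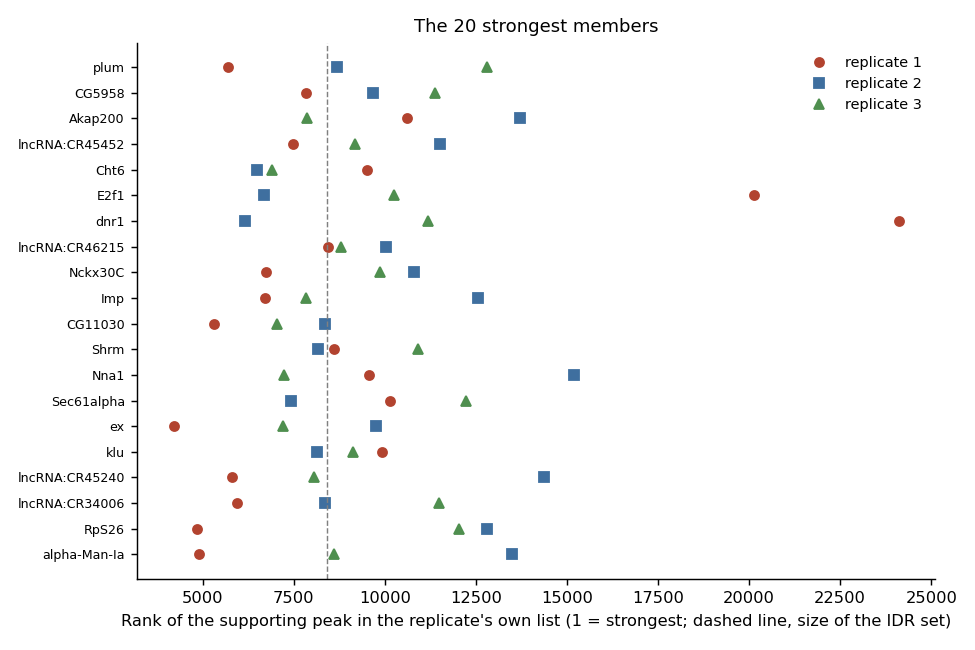
Rank of the supporting peak (x axis; 1 is the strongest of the list) in each replicate for the 20 strongest members, labelled by the gene with a TSS within 500 bp, otherwise by the gene they lie in or, between genes, the nearest one. The dashed line is rank 8424, the size of the IDR set; E2f1 and dnr1 ranked 20138 and 24117 in replicate 1, against 6683 and 6170 in replicate 2.

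Position in the genome was not used to choose members and was tested with two-sided Fisher's exact tests over peaks, which treat each peak as independent and so measure counting error only. The Benjamini-Hochberg adjustment ran over the 7 position classes. Coding exons, away from any TSS, held 21 members (0.395%) and 252 other non-IDR peaks (1.73%). The log2 odds ratio was -2.15, with a 95% interval of -2.80 to -1.51 and a Fisher's exact adjusted p of 1.18e-14. Members were more often intergenic: 16.4% against 14.7% within 5 kb of a TSS (log2 odds ratio 0.18, exact adjusted p = 0.00793), and 11.2% against 9.75% farther away (0.22, exact adjusted p = 0.00793). At matched pooled signal the coding exon value was smaller (-0.88, chi-square adjusted p = 0.0253) and the intergenic values were larger, 0.54 within 5 kb and 0.91 farther away. Against peaks supported by 2 replicates they were -1.70, 0.35 and 0.40 in the same order, each still called. Apart from promoters, the classes were tried under these 2 alternatives only. Bins of GC content, other overlap rules and leaving out single replicates were not tried on them.

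First introns were the commonest class in both sets, with 26.8% of members and 27.2% of other non-IDR peaks (log2 odds ratio -0.03, 95% interval -0.14 to 0.07, exact adjusted p = 0.516). Later introns held 20.4% of members and 19.2% of others (0.11, exact adjusted p = 0.0609). At matched pooled signal the later-intron difference was larger and called (0.42, Cochran-Mantel-Haenszel chi-square adjusted p = 1.09e-08). Untranslated and non-coding exons held 3.61% of members and 4.65% of others (-0.38, exact adjusted p = 0.00519). That call was lost at matched pooled signal (-0.098, chi-square adjusted p = 0.514). The strongest members of these classes were in the first intron of Akap200 (93.7), the later intron of plum (93.7), the exon of RpS26 (93.4) and a coding exon of sgg, the GSK-3 kinase (82.2). Of the intergenic members farther than 5 kb from any TSS, the strongest lay 26186 bp upstream of CG43245 (93.1).

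**Figure D2:**
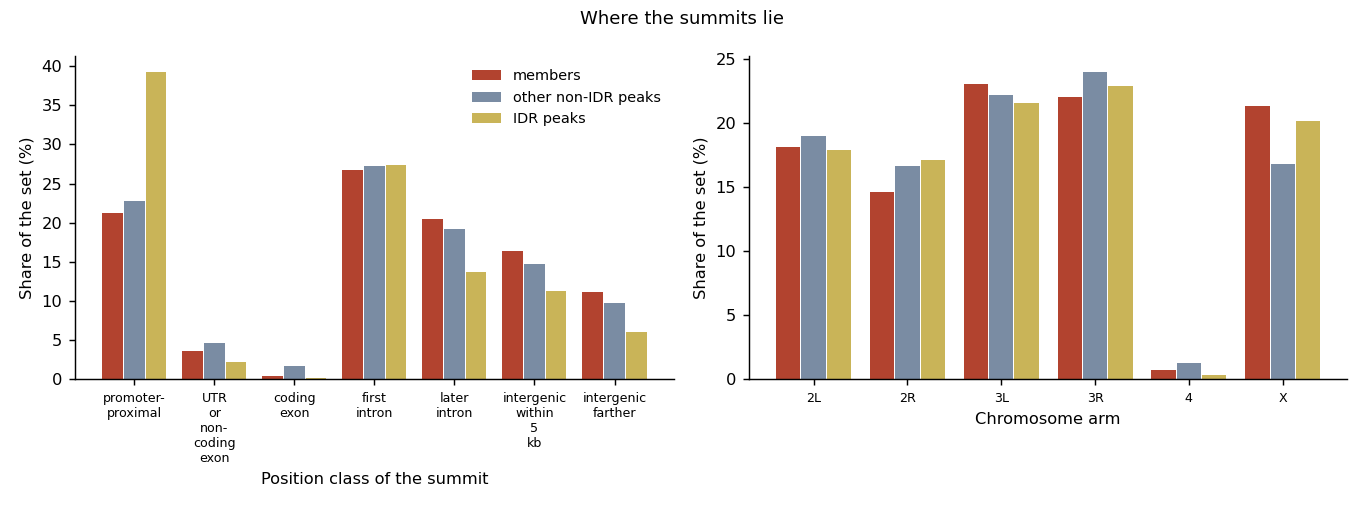
Share of peaks (y axis, % of each set) by position class of the summit (left) and chromosome arm (right), for members (n = 5316), other non-IDR peaks (n = 14540) and IDR peaks (n = 8424). Promoter-proximal summits were 21.3% of members, 22.7% of others and 39.3% of IDR peaks; X held 21.4%, 16.8% and 20.2% of these sets.

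Promoters, taken as summits within 500 bp of a TSS, held 1132 members (21.3%, 95% Wilson interval 20.2 to 22.4%) and 3305 other non-IDR peaks (22.7%, 22.1 to 23.4%). Fisher's exact test gave p = 0.0327 (adjusted p = 0.0458) for a log2 odds ratio of -0.12, whose 95% interval was -0.23 to -0.01. This difference did not hold a direction: it was 0.15 when any overlap of 1 bp gave support, 0.17 when support came from the strongest 20000 peaks of each list, and 0.03 (chi-square p = 0.621) within bins of GC content. Against IDR peaks, of which 39.3% were promoter-proximal, the members' share was lower (log2 odds ratio -1.26, Fisher's exact p = 4.05e-110). That comparison also crosses the signal threshold that separates these sets.

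Which replicates supported a peak went with its promoter share. Peaks supported by replicates 2 and 3 alone, 4399 of the other non-IDR peaks, were promoter-proximal in 35.1% (33.7 to 36.6%). Those supported by replicates 1 and 3 alone were so in 17.4%, by replicates 1 and 2 alone in 17.5%, and by replicate 1 alone in 11.8%. With the peaks of replicates 2 and 3 alone left out of the comparison the log2 odds ratio was 0.37. That set was left out because its high promoter share had been seen, so this value is a description with no test. Without replicate 1 in the rule, these 4399 peaks joined the members, 9715 in all. The higher value then (0.86) follows from their promoter share and is not a separate result.

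The same split appeared in the replicates' own lists. Among peaks outside the IDR set, promoter-proximal summits were 21.3% of those matching a member in replicate 1, against 15.5% of the rest. The shares were 21.5% against 32.3% in replicate 2 and 21.6% against 26.3% in replicate 3. Over all peaks of a list outside the IDR set the shares were 16.9%, 29.4% and 25.04% in replicates 1, 2 and 3. Replicate 1 thus had the lowest promoter share in this range. What sets replicate 1 apart was not tested.

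**Figure D3:**
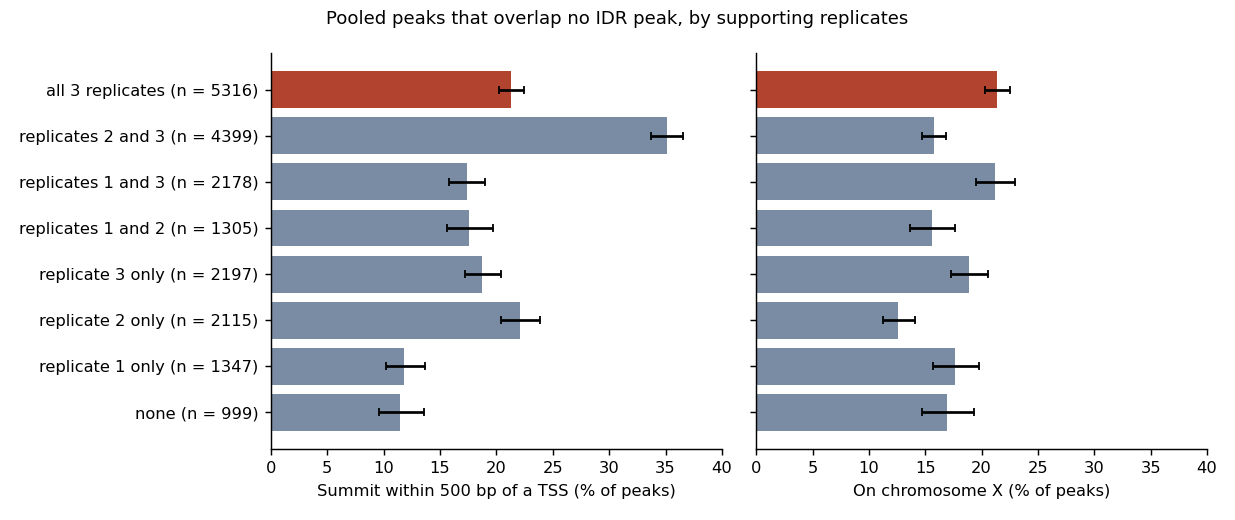
Share of peaks (x axes, %) that were promoter-proximal (left) or on chromosome X (right), by the replicates that supported them; bars are shares and error bars 95% Wilson intervals, which cover counting error only. Members (all 3 replicates) had 21.3% at promoters, against 35.1% for peaks of replicates 2 and 3 alone; on X they had 21.4%, close to the 21.2% of peaks of replicates 1 and 3 alone.

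At matched pooled signal the promoter difference was much larger. The non-IDR peaks were divided into 10 equal bins by pooled signal. That signal moves with the number of supporting replicates, as members were 2.42% of the weakest bin and 72.5% of the strongest. In the strongest bin, 27.03% of 1439 members and 60.0% of 547 other peaks were promoter-proximal (Fisher's exact adjusted p over the 10 bins = 3.83e-40, log2 odds ratio -2.02, interval -2.31 to -1.72). Of these 547, 75.7% were supported by replicates 2 and 3 alone. In the 5 weakest bins the odds ratio was called in 1, the second, where members had the higher share (27.5% of 69 members against 14.5%). Over all bins together the Mantel-Haenszel log2 odds ratio was -1.14 (-1.28 to -1.01).

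**Figure D4:**
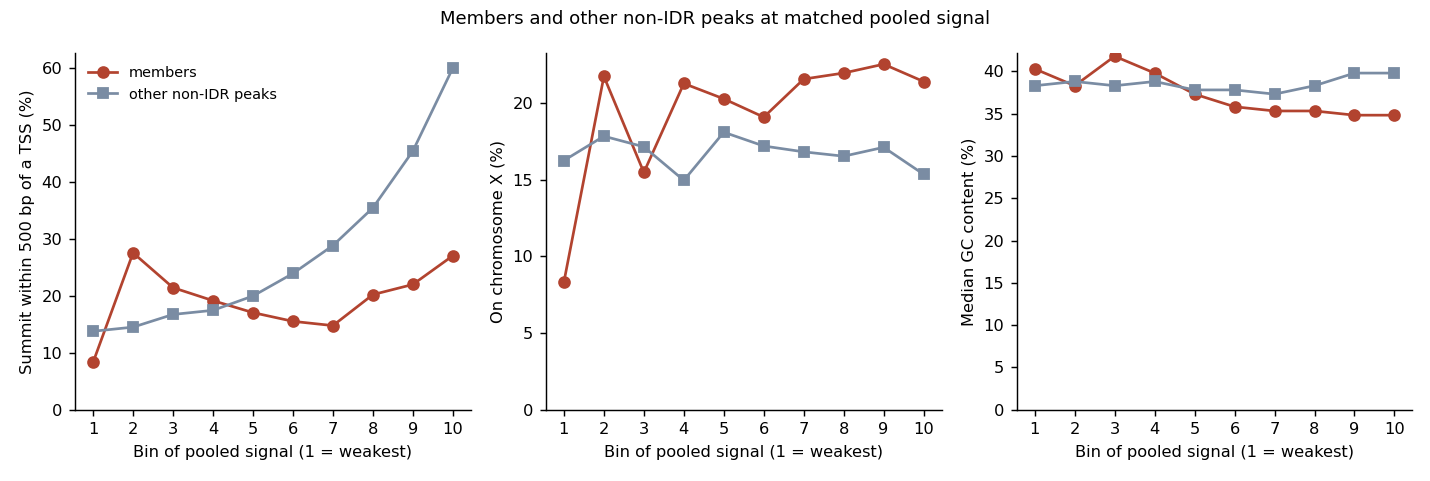
Promoter-proximal share, share on X and median GC content (y axes, %) of members and other non-IDR peaks in each bin of pooled signal (x axis, 1 is the weakest). In the strongest bin members had 27.03% at promoters and 21.4% on X, against 60.0% and 15.4% of others; the weakest 3 bins hold 48, 69 and 84 members.

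Promoter members had a median position 66.5 bp upstream of the TSS, against 19 bp upstream for the other non-IDR peaks and 95 bp upstream for IDR peaks. Upstream summits were 66.4% of the 1132 promoter members, 54.6% of other promoter peaks and 74.9% of promoter IDR peaks. The nearest TSS belonged to a protein-coding gene for 84.2% of promoter members and 83.8% of others, to a long non-coding or other annotated RNA for 13.3% and 12.5%, and to a transfer RNA gene for 12 members and 88 others. These positions are given as a description, with no test.

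Chromosome X held a higher share of members than of other non-IDR peaks, a difference that kept its direction and its call under all 15 alternatives tried on it. Of members, 1136 (21.4%, 95% Wilson interval 20.3 to 22.5%) lay on X, against 2446 other non-IDR peaks (16.8%, 16.2 to 17.4%), a log2 odds ratio of 0.43 (0.31 to 0.54; adjusted p over 6 arms = 1.99e-12, Fisher's exact test). Over the alternatives the log2 odds ratio ran between 0.15 and 0.50, lowest without replicate 1 and highest without replicate 2. Within bins of GC content it was 0.40, within bins of pooled signal 0.41, and with 1 peak per 1000 bp neighbourhood 0.39. In the dm3 lists, aligned separately, it was 0.40. Taken singly, signal bins 7 to 10, the strongest, were called (0.44 to 0.59). Bins 1 to 6, which hold fewer members, were not called, and bins 1 and 3 had values below 0 (-1.09 and -0.18).

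In the own lists of replicates 1, 2 and 3, X held 21.6%, 21.3% and 21.5% of the non-IDR peaks that matched a member, against 16.3%, 15.1% and 18.4% of the rest, higher in 3 of 3 replicates. These lists gave the members their support, so the replicates show the size of the difference and are not a separate test of it. By support, X held 21.2% of peaks of replicates 1 and 3 alone, but 15.8% of those of replicates 2 and 3 alone and 12.6% of those of replicate 2 alone. Members had 48.3 summits per Mb of X, and between 28.9 (chromosome 4) and 43.6 (3L) per Mb elsewhere.

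Split by position class after the pooled value was seen, the X difference was called in promoters (22.2% of members against 16.1% of others, log2 odds ratio 0.57, Fisher's exact adjusted p over 7 classes = 2.10e-05) and in first introns (25.02% against 18.7%, 0.54, adjusted p = 4.15e-06). It was also called in later introns (24.1% against 20.3%, 0.31, exact adjusted p = 0.0198) and in intergenic DNA within 5 kb of a TSS (16.4% against 12.6%, 0.45, adjusted p = 0.0139). Farther from genes the shares were 12.6% and 12.3% (0.05, 95% interval -0.37 to 0.47, exact adjusted p = 0.824). Whether the classes differ from each other was not tested. The strongest X member lay in the first intron of Cht6, 45756 bp from the nearest IDR summit.

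**Figure D5:**
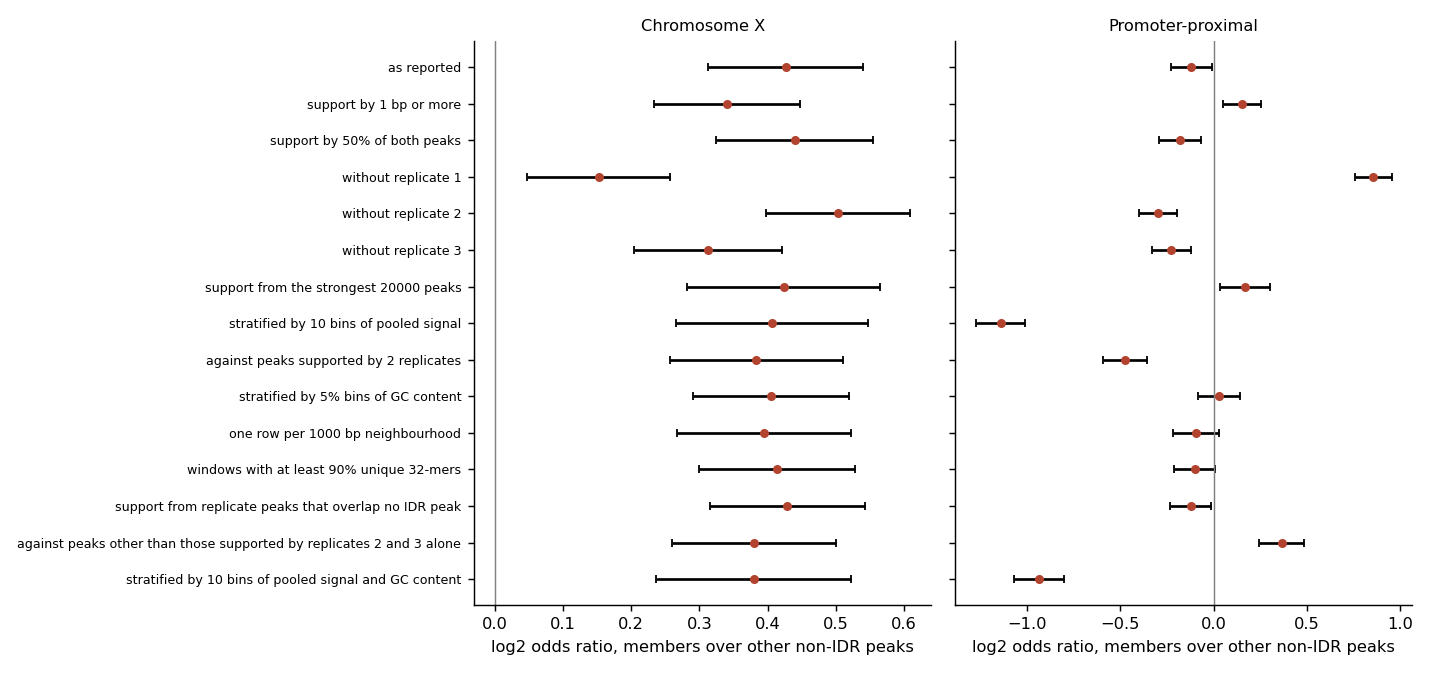
Log2 odds ratio of members over other non-IDR peaks (x axes; points with 95% intervals) for chromosome X (left) and for promoter-proximal position (right), as reported and under the alternatives both share. The X value stayed above 0 in each (0.15 to 0.50), whereas the promoter value lay between -1.14 and 0.86.

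Chromosome 4 and the arms 2R and 3R had a lower share of members. Chromosome 4, a small and largely heterochromatic chromosome, held 39 members (0.734%) and 187 others (1.29%; log2 odds ratio -0.82, Fisher's exact adjusted p = 0.00171), a call lost without replicate 1 (-0.092) and with 1 bp overlap (-0.43, adjusted p = 0.0594). Of the 39, 25 (64.1%) were promoter-proximal, among them ND-49 (a subunit of respiratory complex I, 92.7), apolpp (the precursor of the main lipoprotein of the blood, 84.4), pan (the transcription factor of Wingless signalling, 66.4), ci (that of Hedgehog signalling, 64.2) and ey (an eye selector, 52.8). The apolpp peak had signals of 41.7, 10.7 and 47.0 in replicates 1, 2 and 3, so replicate 2 barely listed it, at rank 27455.

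Arm 2R held 14.6% of members and 16.7% of others (-0.22, exact adjusted p = 0.00171), and 3R held 22.1% and 24.0% (-0.16, exact adjusted p = 0.00609). The 2R value turned to 0.10 (exact adjusted p = 0.1) without replicate 1. Its call was also lost with support from the strongest 20000 peaks (-0.13, exact adjusted p = 0.19) and without the peaks of replicates 2 and 3 alone (-0.11, exact adjusted p = 0.12). The 3R call was lost without replicate 3 (exact adjusted p = 0.052), with 1 peak per neighbourhood (0.0509) and within bins of signal and GC content together (chi-square adjusted p = 0.0523). Shares on 2L (18.2% and 19.0%) and 3L (23.04% and 22.2%) missed the threshold, each with an adjusted p of 0.226. Each was called under 1 alternative: 2L without replicate 1 (-0.14, exact adjusted p = 0.0196) and 3L with 1 bp overlap (0.14, exact adjusted p = 0.0091).

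Members lay near IDR peaks more often than the other non-IDR peaks did. An IDR summit was within 5000 bp of 61.7% of members and 57.0% of others (log2 odds ratio 0.28 by Fisher's exact test, p = 2.43e-09, 95% interval 0.19 to 0.37), and within 1000 bp of 15.9% and 12.5% (0.41). The median distance was 3316.5 bp for members and 3844 bp for others. At matched pooled signal the difference within 5000 bp was gone (-0.0076, chi-square p = 0.895), and against peaks supported by 2 replicates it was 0.093 (p = 0.0779). Without replicate 2 in the rule it was -0.0085.

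Members were richer in A and T. The median GC content within 100 bp of the summit was 35.3% in members (quartiles 30.8 to 40.8%), 38.3% in other non-IDR peaks (32.8 to 44.8%) and 34.3% in IDR peaks. The same order held within promoters (37.8% against 40.3%), first introns (35.3% against 37.8%), later introns (34.8% against 37.3%) and both intergenic classes. Coding exons went the other way, at 57.2% in 21 members and 53.7% in others. So did bins 1, 3 and 4 of pooled signal, where few members lie. Medians there were 40.3, 41.8 and 39.8% in members and 38.3, 38.3 and 38.8% in others. In the remaining bins members had the lower median. Without replicate 1 in the rule the difference shrank to -0.498 percentage points, against -2.99 as reported. No test was run on GC content.

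Repeat-masked bases made up 21.6% of member windows and 20.1% of others, and windows with at least 90% unique 32-mers were 99.0% and 98.7% of the sets. Annotated transposable elements held few summits of either set, with a lower share in members (0.395%) than in others (0.763%). These shares were not tested.

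Both strands were searched for 17 motifs, up to 100 bp from each summit, and 10 differed between members and other non-IDR peaks (Fisher's exact test, Benjamini-Hochberg over 17). Members more often held the TATA box TATAAA (35.0% against 30.6%, log2 odds ratio 0.29, exact adjusted p = 9.11e-08), the homeodomain core TAATTA (16.8% against 15.01%), the GATA site AGATAA (14.8% against 13.3%), a run of 8 A (18.3% against 16.0%) and the DRE, the element of the DREF factor, TATCGATA (1.66% against 1.19%). They less often held the GAGA factor site GAGAG (20.1% against 23.7%, -0.31, exact adjusted p = 5.25e-07), the Pho core GCCAT (28.5% against 31.0%), the Scalloped site GGAATG (7.05% against 8.58%), the E-box CANNTG (60.1% against 62.6%) and CACACACA (3.89% against 4.89%). The BEAF core CGATA lies inside the DRE, and these searches overlap.

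Within bins of 5% GC content, 0 of the 17 motifs differed at an adjusted p under 0.05. Below 30% GC, TATAAA was in 55.6% of members and 55.2% of others, and between 30 and 35% GC in 41.0% and 43.6%. GAGAG was in 11.96% of members and 10.6% of others below 30% GC, and in 41.0% and 39.0% above 50%. At matched pooled signal and GC content together, an alternative added after seeing the data, 5 motifs differed. GGTCACAC, the core of a housekeeping promoter motif bound by M1BP, the DRE, GAGAG and CGATA were lower in members (log2 odds ratios -0.87, -0.66, -0.32 and -0.19), and the Pho core was higher (0.18). The DRE and Pho core values had the opposite sign without strata (0.48 and -0.17).

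Of 13968 protein-coding genes, 982 (7.03%) had a member within 500 bp of a TSS, and 1507 (10.8%) had one inside the gene. Of the 982, 170 (17.3%) also had an IDR summit at a TSS, a state that 24.3% of all coding genes had. Among the 10577 genes with no IDR summit at a TSS, 812 (7.68%) had a member there. The counts for gene groups below are read against these shares and were not tested, since neighbouring genes share peaks and gene length differs between groups.

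Hox genes, which set segment identity, had a member at the start of 3 of 8 genes, against 7.03% of coding genes. An IDR summit lay at the start of 0. At 3 others, lab, pb and Abd-B, only another non-IDR peak lay there. At Dfd, which patterns the head, the supporting signals were 27.2, 31.3 and 44.5 in replicates 1, 2 and 3 (pooled 92.5). The ranks there were 6540, 10796 and 7988. At Antp, which patterns the thorax, the signals were 19.99, 33.0 and 28.4 (pooled 83.3) and the ranks 8628, 10200 and 12203. At abd-A, which patterns the abdomen, the signals were 13.2, 20.7 and 36.1 (pooled 65.2) and the ranks 12518, 16009 and 9811. The Antp and abd-A members lay outside the strongest 8424 peaks of every library, and the Dfd member outside those of replicate 2 only. The nearest IDR summit was 20891 bp away at Dfd, 3148 bp at Antp and 15318 bp at abd-A. Antp held 17 members over 103 kb and Ubx, which distinguishes haltere from wing, 5 over 77.8 kb.

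The Dpp and JAK/STAT pathways had a member at 6 of 19 genes, against 7.03% of coding genes. They were the ligands dpp (68.6), gbb (63.3) and upd3 (48.8), the Dpp receptor tkv (67.9), the Dpp target repressor brk (63.4) and the feedback inhibitor Socs36E (76.3), given as pooled signals. At Socs36E the supporting signals were 7.53, 37.7 and 35.5 in replicates 1, 2 and 3, so it ranked 23483 in replicate 1 and 8826 and 9978 in the others. At upd3 they were 17.0, 26.1 and 56.1, with replicate 3 the highest in rank. The dpp member is nearer to the start of lncRNA:CR44912 and the tkv member to that of CR14033.

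In other signalling pathways the shares with a member at the start were close to the 7.03% of coding genes. These were 2 of 20 EGFR genes (Egfr, the receptor, 84.9, and its feedback inhibitor sty, 21.1), 2 of 23 Notch genes (Ocho, 76.9, and Tom, 57.8, both Bearded-family inhibitors) and 2 of 25 Wingless and Hedgehog genes (pan and ci). Inside genes, members were commoner, as 11 of the 20 EGFR genes and 13 of the 25 Wingless and Hedgehog genes held at least 1, against 10.8% of coding genes. Median gene length in these lists was 11.3 and 13.7 kb, against 2.16 kb over all coding genes. The receptor genes Egfr (8 members over 37.6 kb) and fz (14 over 94.3 kb) held the most in each list.

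Axon guidance and adhesion genes had a member at the start of 7 of 34, against 7.03% of coding genes. They were Fas3 (85.7) and rst (50.9), which are adhesion proteins, Nrg (74.7), the neuroglian, CadN (33.8), the neural cadherin, the guidance cue NetB (64.4), its receptor fra (68.3) and Sema1a (82.2), a semaphorin. At Fas3 the signals were 8.56, 61.7 and 23.7 in replicates 1, 2 and 3, with ranks of 20069, 4835 and 14375. Replicate 2 alone placed that peak among its strongest 8424. Among neuronal genes, dlg1 (83.4), Syt1 (59.0) and Sh (50.1) were 3 of 19, with the same background. Median gene length was 39.0 kb in the axon guidance list and 37.8 kb in the neuronal list, against 2.16 kb over all coding genes.

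Ecdysone response genes act at this stage, when the hormone starts metamorphosis. A member lay at the start of 3 of 27, against 7.03% of coding genes. They were EcR, the receptor (89.7), br, an early transcription factor (37.4), and Eip63E, a kinase (31.6). All 3 also had an IDR summit at another position near a TSS, and 18 of the 27 had one, against 24.3% of coding genes. Inside the genes, 14 of 27 held members, 64 in all, led by Eip75B with 15 over 114 kb. At EcR the signals were 7.39, 47.3 and 27.4 in replicates 1, 2 and 3, again lowest in replicate 1, where the rank was 24049.

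Of 32 appendage and eye selectors, 3 had a member at the start (mirr at 84.7, ey at 52.8 and C15 at 40.8), against 7.03% of coding genes. At 17 others only another non-IDR peak lay there. The median length of the 32 was 19.5 kb, against 2.16 kb over all coding genes. Inside the gene, 21 held a member, against 10.8% of coding genes, 61 members in all. The most were in hth (16 over 132 kb), a homeodomain partner of the Hox proteins, bab1 (8 over 64.7 kb) and bi (7 over 72.8 kb). Segmentation factors with a member at the start were bowl (93.2), ems (75.8) and Ptx1 (45.2), 3 of 29. Of 24 proneural and neural fate genes, 1 did (wor, 42.6).

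Of 34 cell cycle genes, 7 had a member at the start, against 7.03% of coding genes, the background for each group here. The replication factors dup (74.7) and Orc1 (67.9), the Cdk inhibitor dap (73.2), the repressor E2f2 (63.2), CycB (34.7), the kinase aurB (33.6) and the phosphatase stg (25.95) are given with pooled signals. The peaks of dup, E2f2 and aurB lay closer to the start of a neighbour, SRPK, Mpp6 and Stam, so the gene cannot be assigned. Cell death genes had 3 of 15: the initiator caspase Dronc (88.6), Buffy, a Bcl-2 relative (86.3, shared with Roc2), and skl, an inhibitor of apoptosis inhibitors (51.1). Clock genes had 3 of 13, namely Pdp1 (80.2), CkIIalpha (71.0) and per (53.7).

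Among genes of differentiated tissues, with the same 7.03% of coding genes as the background, epidermis and trachea had a member at the start of 4 of 16 (Ubr3 at 81.4, ple at 72.7, f at 42.4 and Ddc at 39.8), of which ple and Ddc make the dopamine used to harden cuticle. Fat body had 3 of 16 (apolpp, Lsp2 at 55.0 and Lsd-1 at 54.8), glue and late puff genes 2 of 22 (Eig71Ef and Eig71Eg, which share 1 peak of 34.7), and muscle 1 of 24 (Mef2, 76.3). Cuticle proteins had 2 of 115 (Cpr12A at 46.2 and Cpr97Eb at 31.7). None was seen at 14 blood and GATA factor genes, 19 heat shock genes or 111 histone genes. The histone genes had 0 with an IDR summit and 0 with another non-IDR peak there too, so their count is not particular to members.

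Housekeeping groups had more genes with an IDR summit than with a member at the start. The same held over all coding genes, where 24.3% had an IDR summit and 7.03% a member there. Among 85 cytoplasmic ribosomal protein genes, 73 had an IDR summit and 2 a member at the start, among them RpL40 (69.5). Mitochondrial ribosomal protein genes had 33 with an IDR summit and 3 with a member of 73 (mRpL19 at 87.2, mRpS17 at 84.9 and mRpS5 at 75.8). Chromatin and insulator genes had 16 and 2 of 27 (Pc, the Polycomb protein, 76.4, and osa, a Brahma complex subunit, 70.3).

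Spermatogenesis genes, many of them targets of tMAC in testis, had 3 of 44 with a member at the start (6.82%, against 7.03% of coding genes) and 2 with an IDR summit. They were nsr, a regulator of Y-linked fertility genes (66.8, nearer to CG3746), bol, a translational activator of meiosis (47.5, nearer to Dhpr), and CycB. At bol the signals were 9.90, 25.97 and 22.0 in replicates 1, 2 and 3. The 5 testis-specific TAF genes had 0, and germline and piRNA genes had 1 of 21 (spn-E, 44.5, nearer to ND-23).

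The genes with the most members inside were long. The immunoglobulin-family gene kirre, needed for myoblast fusion, held 39 over 394 kb of X, with 38 IDR summits and 64 other non-IDR peaks. By length, Drak, a kinase gene on X, was the densest of the 12 genes with 14 or more members, with 15 over 61.9 kb or 24.2 per 100 kb, and CG43658 followed with 19 over 105 kb or 18.1 per 100 kb. Antp had 16.5 per 100 kb. The least dense was Ten-a, a teneurin, with 4.80, against 3.97 over all 6 arms. The genes were ranked by their count, so their densities are a description.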

How the data were processed

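Anti-GFP ChIP-seq was measured in 3 libraries of 1 group. Reads were aligned by the authors to dm6 and dm3, and relaxed peaks were called per replicate and for the pool against a control alignment and passed to IDR, per the README text deposited beside each sample. Not given in the sources used here: aligner, caller, versions, IDR threshold. The deposited signal is the authors' enrichment score and is not scaled between libraries. The deposited -log10 q-value described peaks and filtered none. Depth is unknown, so intervals cover counting error over peaks only.

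The dm6 lists were used, with dm3 as an alternative. Genes and 24111 TSSs came from Ensembl release 115 of the same assembly, bases from RefSeq. Shares were compared with Fisher's exact tests, or Mantel-Haenszel estimates with a Cochran-Mantel-Haenszel p where stratified, with Benjamini-Hochberg adjustment within each family. A permutation test planned for GC content was not run, so GC content is described only. The steps were tested on simulated data. Members, gene lists, motifs and rules were chosen with earlier results of these data known. Named genes were the 20 strongest members, the strongest per class and arm, up to 4 per list by pooled signal (further list members are named for completeness), the genes with most members, and tMAC genes. The 13 members ranking high in every replicate were chosen after their values were seen. Of the lists, 8 entries were not analysed here, and 923 were. Analyses used Python 3.11.15, numpy 2.4.6, pandas 2.3.3, scipy 1.17.1, statsmodels 0.14.6 and matplotlib 3.10.9. A few items are not reported here.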

Additional observations from a re-analysis of the deposited data

How the results depend on the processing

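No paired analysis was possible because the 3 libraries form 1 group. Leaving out each replicate from the rule gave 6621 to 9715 members, against 5316, and 1138 to 2129 coding genes with a member at a TSS, against 982, the highest values being without replicate 1. Support from the strongest 20000 peaks gave 2784 members and 623 genes, and a TSS window of 200 bp gave 637 genes.

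The promoter log2 odds ratio (-0.12) ran between -0.30 and 0.86 when replicates were left out. It was 0.15 with 1 bp overlap, 0.17 with the strongest 20000 peaks, 0.028 within GC bins and 0.37 without the peaks of replicates 2 and 3 alone. It missed the threshold with 1 peak per neighbourhood (-0.094, exact p = 0.143), unique windows (-0.10, p = 0.0768) and coding TSSs (-0.084, p = 0.16). Nearness to IDR summits (0.28) ran between -0.0085 and 0.65 without single replicates, and was -0.0076 within signal bins and 0.093 against peaks of 2 replicates. The GC difference (-2.99 points) ran between -3.48 and -0.498 without single replicates, and was -1.99 with 1 bp overlap and -0.599 in 501 bp windows. In the replicates' own non-IDR peaks, those matching a member minus the rest differed by -3.65 ± 0.574 points (SD, n = 3). Arm 2R (-0.22) ran between -0.30 and 0.10 without single replicates.

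Of 17 motifs, 10 were called as reported, 0 within GC bins, 5 in 200 bp windows, and 5 within signal bins and GC bins together. Among motifs called with or without strata, values of opposite sign were, within GC bins, -0.043 for the homeodomain core and -0.034 for TATA. Within signal bins they were -0.60 for the DRE, -1.03 for the M1BP core and 0.066 for the Pho core. Within both they were -0.66, -0.87 and 0.18 for those 3, -0.0071 for the A run and 0.016 for the E-box. AP-1, the M1BP core, the BEAF core and Zelda also changed sign under settings that called none of them. The cause of these changes was not tested. In all, 23 alternatives were run, 20 of them planned.

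The relaxed lists stop at 30000 rows, so a peak missing from a replicate means only that none reached that rank, and members with it.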
